A study of Danio rerio with 6 samples.

Results

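Cell cycle inhibitors and targets of the p53 protein were measured in heart ventricles of young and old zebrafish. They were defined by a list of 8 gene symbols, *cdkn1a*, *cdkn1bb*, *cdkn1ca*, *cdkn2a/b*, *cdkn2c*, *mdm2*, *ccng1* and *gadd45aa*, from which a symbol without a single Ensembl gene ID was left out. This left 6 genes of the 32520 in the count table. *cdkn1bb* and *gadd45aa* were dropped because the name table gives 2 IDs each for CDKN1B and GADD45A without saying which copy is which. Both copies of each are described further on, as copies and not as members. Total RNA came from ventricles of 3 fish aged 7 months (replicates 1, 2 and 5) and 3 fish aged 4 years (replicates 1, 3 and 5), all wild type fish from crosses of the strains AB and TU. Poly(A) RNA was sequenced with strand information, and each gene has 1 read count per ventricle. Each fish is 1 library. The paper states that the 3 samples per group were picked from a larger set by RNA integrity, to use those of best quality. The RNA is that of the whole ventricle, so fewer cells of a type and less RNA per cell cannot be told apart.

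Cell division is driven by cyclin-dependent kinases (CDKs) with their cyclins, and 2 families of small proteins block them. The CIP/KIP family (p21, p27 and p57, encoded by *CDKN1* genes) binds many cyclin-CDK complexes, whereas the INK4 family (encoded by *CDKN2* genes) binds the kinases that pair with D-type cyclins and so keeps the RB protein active. The transcription factor p53 switches on p21 after DNA damage, together with genes of repair and cell death, and Mdm2, itself a p53 target, marks p53 for degradation. p21 and the *CDKN2A* product p16 are widely used markers of cellular senescence in mammals, and heart muscle cells of adult mammals divide rarely, while those of zebrafish can divide again after injury. The roles given for single genes are, unless zebrafish are named, those known from mammals.

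The libraries held between 17742389 and 22547518 counted reads. The presence of heart muscle was checked with 18 cardiomyocyte markers, whose summed level was 99256 to 120360 CPM (read counts scaled to a common library size, with TMM factors) in old and 110320 to 135780 CPM in young ventricles. This sum cannot tell ventricle from atrium, since most of the markers are general heart muscle genes. Summed leukocyte markers stood at 1082, 323 and 851 CPM in old replicates 1, 3 and 5, and at 300, 229 and 170 CPM in young replicates 1, 2 and 5. Erythrocyte markers summed to 422, 461 and 438 CPM in old against 2382, 829 and 1212 CPM in young libraries. The share of reads from mitochondrially encoded genes was 11.3% to 13.9% in old and 14.9% to 17.9% in young libraries.

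All 6 members had a higher mean in old than in young ventricles, but none of the 6 differed past the threshold of an adjusted p of 0.05 (edgeR quasi-likelihood test over 24835 genes, Benjamini-Hochberg). In that fit 0.858% of all tested genes passed, 0.519% higher and 0.338% lower in old fish. A positive log2 fold change was found for 12729 of the 24835 tested genes. Among the 13262 of these with a mean of at least 1 CPM, 6049 had a positive one. The fitted log2 fold changes of the members, old against young, ran from 0.05 for *mdm2* to 2.48 for *cdkn2a/b*, with a median of 0.37, where the median over all tested genes was 0.02. *cdkn2a/b* was the member with an unadjusted p under 0.05 (16.7% of the members, where 8.64% of all tested genes were higher with such a p). The old and young libraries did not overlap for *cdkn1a* and *cdkn2a/b*, which is 33.3% of the members, while 10.4% of all tested genes had every old library above every young one and 9.66% every old library below. With 6 genes neither share can be read as a property of the list. DESeq2 and limma-voom also called 0 of the 6, where DESeq2 called 7.27% of the 17045 genes to which it gave an adjusted p and limma-voom 0.378% of its genes.

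*cdkn1a* encodes p21, the CIP/KIP inhibitor that p53 induces. Its level was 7.12, 6.37 and 5.12 CPM in old replicates 1, 3 and 5, and 5.01, 4.30 and 4.03 CPM in young replicates 1, 2 and 5. Every old ventricle was above every young one, but the nearest pair, old replicate 5 and young replicate 1, lay close together. The means were 6.20 ± 1.01 CPM in old and 4.45 ± 0.503 CPM in young fish (SD, n = 3). The log2 fold change was 0.48 ± 0.25 (SE, 95% interval -0.09 to 1.05), with an adjusted p of 0.420 in edgeR. The interval takes in no difference as well as a doubling of the transcript.

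*cdkn1ca*, a copy of the gene for the CIP/KIP inhibitor p57, varied far more between fish than between ages. Its level was 0.272, 4.60 and 2.19 CPM in old replicates 1, 3 and 5, and 0.551, 0.0483 and 1.89 CPM in young replicates 1, 2 and 5. Each group thus held a fish with almost none and a fish with a clear signal, and the groups overlapped. The highest library was 95.3-fold above the lowest, which rested on 1 read, and the coefficient of variation was 92.2% among old and 115% among young ventricles. The means were 2.36 ± 2.17 CPM and 0.83 ± 0.952 CPM (SD, n = 3). The log2 fold change of 1.50 ± 1.05 (SE, 95% interval -0.87 to 3.86) had an adjusted p of 0.554 in edgeR. It ranged from 0.58 without old replicate 3 to 2.95 without young replicate 5, and a fit with the replicate number as a block turned it to -0.28. In that fit the age difference rests on the fish numbered 1 and 5 alone. Old replicate 3 and young replicate 2, here the highest and the lowest library, add nothing to it. The other copy, *cdkn1cb*, had 11, 0 and 2 reads in old and 1, 2 and 2 reads in young ventricles, so 1 old fish held most of them.

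**Figure D1:**
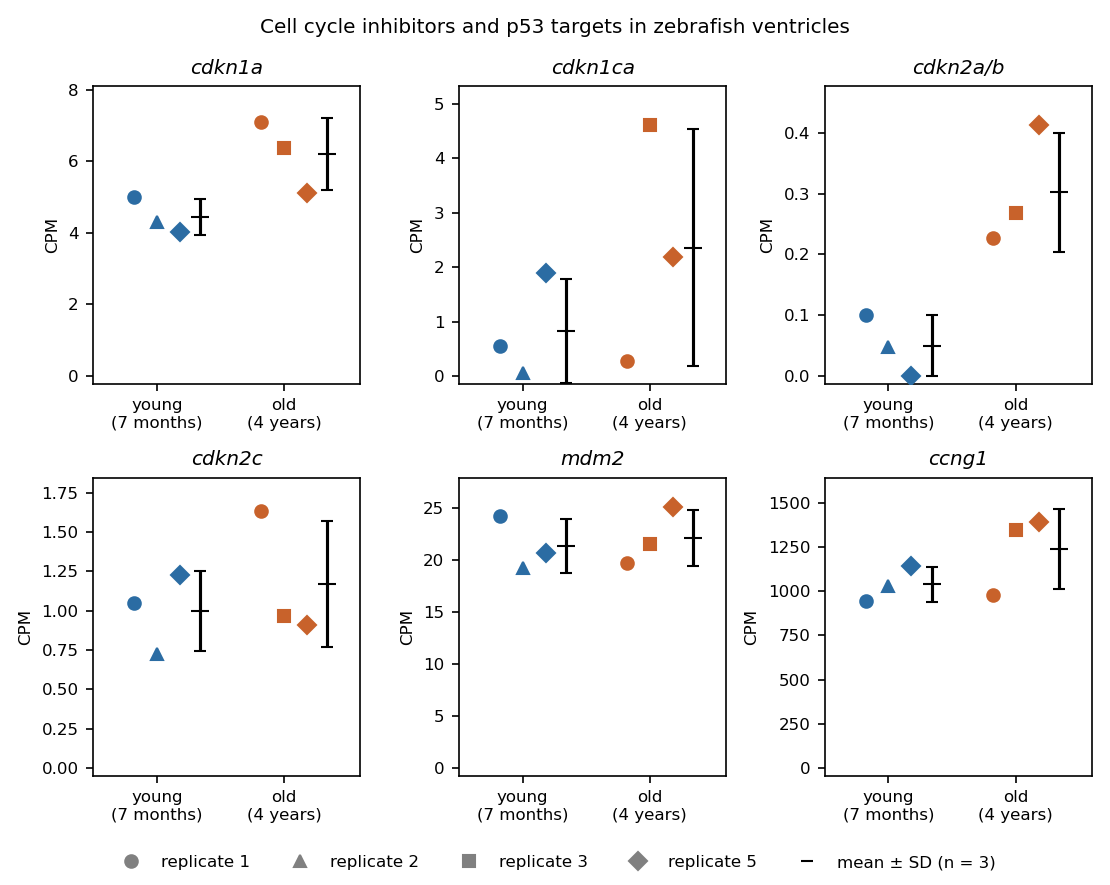
Normalised level in CPM (vertical axes, linear, from 0, each panel with its own range) of the 6 members in young and old ventricles, with 1 point per fish, the symbol shape giving the replicate number, and bars for the mean ± SD of 3 fish. The old points lie above all young points for *cdkn1a* (5.12 CPM or more against 5.01 CPM or less) and *cdkn2a/b*, and the groups overlap for the other 4 genes.

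The INK4 locus was close to the limit of detection. *cdkn2a/b*, the single zebrafish counterpart of the mammalian p16 and p15 genes, was covered by 5, 5 and 10 reads in old replicates 1, 3 and 5, and by 2, 1 and 0 reads in young replicates 1, 2 and 5. Each young library was thus below the 3 reads (0.124 to 0.161 CPM, depending on the library) that a count of 0 would still allow, and every old library was above it. Pooled over fish, 20 old against 3 young reads gave a ratio of 6.19, with an exact 95% interval of 1.83 to 32.5 that covers counting error only. The edgeR log2 fold change across fish was 2.48 ± 0.94 (SE, 95% interval 0.37 to 4.59), with an unadjusted p of 0.0260 and an adjusted p of 0.250. The single-gene p was thus under 0.05, and the gene was not called once all genes were taken into account. The unadjusted p was also under 0.05 in 11 of 16 alternative settings, several of which differ little from the main fit. It was 0.054 in DESeq2 and 0.152 in edgeR with the replicate block. In edgeR it was also 0.0879 without old replicate 5, 0.0672 without young replicate 2 and 0.0656 without young replicate 5. The log2 fold change was 3.34 without young replicate 1 and 1.96 without young replicate 5, the libraries with 2 and 0 reads. The adjusted p lay between 0.170 (limma-voom) and 0.801 (replicate block) over the 16 alternative settings that kept the gene, and none passed the threshold.

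*cdkn2c*, which encodes the INK4 protein p18, had 1.63, 0.964 and 0.909 CPM in old and 1.05, 0.725 and 1.23 CPM in young ventricles. Old replicate 1 stood above the others, and the remaining old libraries lay within the young range. Its means were 1.17 ± 0.402 and 1.00 ± 0.254 CPM (SD, n = 3), and its log2 fold change was 0.22 ± 0.45 (SE, 95% interval -0.78 to 1.23, edgeR adjusted p = 0.832). Leaving out old replicate 1 turned it to -0.09. *cdkn2d*, the gene of a further INK4 inhibitor, had 1, 0 and 2 reads in old and 0, 1 and 2 reads in young libraries, at which depth no difference was detectable.

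*mdm2*, the gene of the feedback regulator of p53, had the smallest log2 fold change of the 6. Its level was 19.7, 21.5 and 25.0 CPM in old replicates 1, 3 and 5, and 24.2, 19.2 and 20.7 CPM in young replicates 1, 2 and 5. The ranges coincided almost completely. The means were 22.1 ± 2.71 and 21.4 ± 2.59 CPM (SD, n = 3), and the log2 fold change was 0.05 ± 0.19 (SE, edgeR adjusted p = 0.920). On the linear scale its 95% interval ran from 0.772-fold to 1.39-fold, so a moderate change in either direction would not have been detectable. The sign was negative in a fit with the replicate number as a block (-0.011) and without old replicate 5 (-0.051) or young replicate 2 (-0.024).

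*ccng1* encodes cyclin G1, a p53 target that recruits a phosphatase to Mdm2. Its level was 978, 1346 and 1392 CPM in old replicates 1, 3 and 5, and 943, 1031 and 1140 CPM in young replicates 1, 2 and 5. Old replicates 3 and 5 were above every young fish, whereas old replicate 1 fell among the young ones. With the deepest coverage of the 6 genes (18829 reads or more per library), the means of 1239 ± 227 and 1038 ± 98.9 CPM (SD, n = 3) differed by a log2 fold change of 0.26 ± 0.17 (SE, 95% interval -0.12 to 0.63, edgeR adjusted p = 0.526). At this depth the spread between fish was far larger than counting error.

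**Figure D2:**
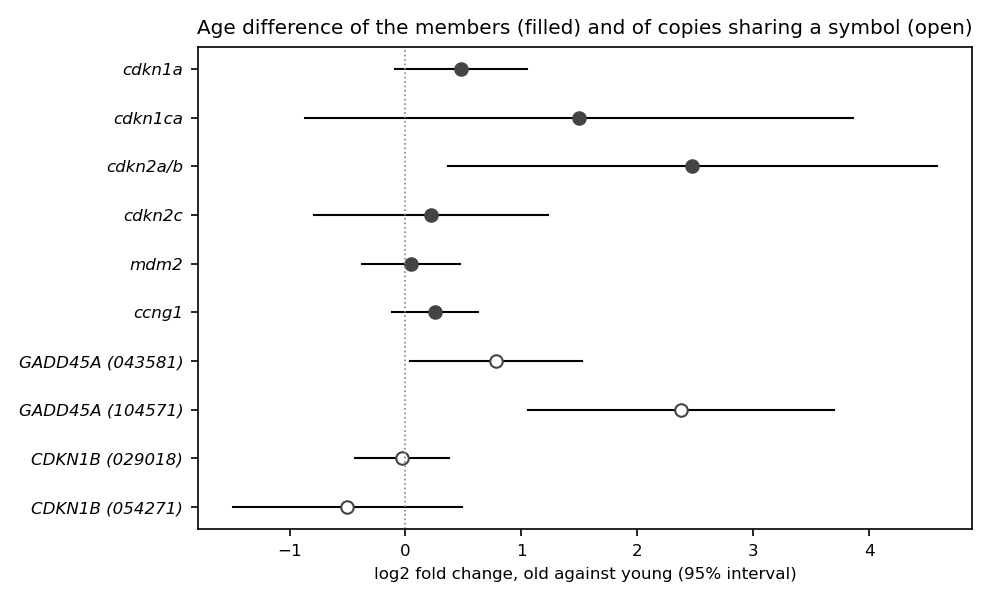
Fitted log2 fold change, old against young (horizontal axis), with its 95% interval (lines) for the 6 members (filled) and for the GADD45A and CDKN1B copies (open, last digits of the Ensembl ID in brackets). The intervals of *cdkn2a/b* (0.37 to 4.59) and of both GADD45A copies lie above 0, and those of the other 7 genes include 0.

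The highest library was an old one for each of the 6 members and the lowest a young one for each of the 6, an order that 28.4% of all tested genes had. Which fish it was differed from gene to gene. Old replicate 5 was highest for 3, old replicate 1 for 2 and old replicate 3 for 1 of them, while young replicate 2 was lowest for 3, young replicate 5 for 2 and young replicate 1 for 1. All 6 stayed higher in old ventricles under each other scaling of the libraries. Scaling by library size alone moved the median log2 fold change of the 13262 genes with a mean of at least 1 CPM from -0.04 to 0.13, and that of the members from 0.37 to 0.54. The number with a positive log2 fold change was 4 of 6 with the replicate block, and 5 of 6 without old replicate 1, old replicate 5 or young replicate 2.

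The GADD45A copies encode growth arrest and DNA damage proteins that act on CDK1 and on stress kinases. The copy ENSDARG00000104571 had 14.1, 24.6 and 4.59 CPM in old replicates 1, 3 and 5, and 1.55, 2.27 and 4.49 CPM in young replicates 1, 2 and 5. Old replicates 1 and 3 stood far above the young fish, whereas old replicate 5 and young replicate 5 were nearly equal. The means of 14.5 ± 10.02 and 2.77 ± 1.53 CPM (SD, n = 3) gave a log2 fold change of 2.38 ± 0.59 (SE, 95% interval 1.06 to 3.70, edgeR adjusted p = 0.102), and the log2 fold change was 1.75 without old replicate 3. The call depended on the method. DESeq2 called it with an adjusted p of 0.00332, as did edgeR without old replicate 5 (adjusted p = 0.0195), while the replicate block gave an adjusted p of 0.617.

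The GADD45A copy ENSDARG00000043581 had 5.53, 4.93 and 4.01 CPM in old and 3.91, 2.51 and 1.99 CPM in young ventricles. The groups did not overlap, although the lowest old and the highest young fish nearly met. Its log2 fold change was 0.78 ± 0.33 (SE, 95% interval 0.04 to 1.52, edgeR adjusted p = 0.305). CDKN1B encodes p27, the CIP/KIP inhibitor tied to quiescence, and neither copy was called. The copy ENSDARG00000029018 had 34.4, 34.9 and 27.8 CPM in old and 29.7, 36.5 and 33.0 CPM in young libraries, a log2 fold change of -0.03 ± 0.18 (SE, 95% interval -0.44 to 0.37, edgeR adjusted p = 0.955), which was 0.15 with scaling by library size alone. The copy ENSDARG00000054271 had 17.2, 27.6 and 17.6 CPM in old and 19.0, 15.2 and 54.1 CPM in young libraries. Its log2 fold change of -0.50 ± 0.44 (SE, edgeR adjusted p = 0.618) rested on young replicate 5 and was 0.28 without that library.

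The same young fish stood apart for *CCNG2*, the gene of cyclin G2 and a relative of *ccng1*, with 87.4 CPM against 13.7 to 38.7 CPM in the other 5 ventricles. This gene was named after its values were seen, and the cause was not tested.

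The list of other CDK inhibitor genes held 7, including both CDKN1B copies. It also held *CDKN2AIP* and *CDKN2AIPNL*, which carry the CDKN2A name but are not CDK inhibitors themselves. On this list 0 genes were called in edgeR, DESeq2 and limma-voom (background 0.858%, 7.27% and 0.378%). DESeq2 gave an adjusted p to 5 of them. In edgeR 0 had an unadjusted p under 0.05, where 15.1% of all tested genes did. The median log2 fold change was -0.13, which is the value of *cdkn2d* with its few reads, and 0.05 with scaling by library size alone. *CDKN2AIP*, whose product binds the p53 stabiliser ARF, had 4.85, 5.41 and 4.46 CPM in old and 6.11, 6.43 and 6.79 CPM in young libraries. All old fish were below all young fish, with a log2 fold change of -0.39 (edgeR adjusted p = 0.476). *CDKN2AIPNL*, a gene named for its likeness to it, had a log2 fold change of 0.27 (edgeR adjusted p = 0.618). *CDKN3*, a phosphatase that acts on CDKs, had -0.32 (edgeR adjusted p = 0.776). For these 2 genes the groups overlapped. On the whole list the groups did not overlap for *CDKN2AIP* alone (14.3%, against 20.0% of all tested genes). *cdkn1cb* and *cdkn2d*, named above with their reads, complete the list.

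Of 37 genes listed as other p53 targets, 26 had a positive and 11 a negative log2 fold change, and the median was 0.20. The list takes in relatives of known targets, and whether each gene responds to p53 in the zebrafish heart was not tested. None passed the threshold in edgeR (0.858% of all tested genes did), while limma-voom called 0 and DESeq2 called 4 of the 36 with an adjusted p (11.1%, background 7.27%). At an unadjusted p under 0.05, 8 of the 37 were higher (21.6%, where 8.64% of all genes were) and 0 were lower (6.50% of all genes were). Named after their values were seen, these 8 were *fas*, *rps27l*, *pmaip1*, both GADD45A copies, 1 copy each of GADD45B and PLK2, and 1 copy of TP53I11.

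*fas* encodes a death receptor on the cell surface. Its level was 2.76, 1.87 and 3.31 CPM in old replicates 1, 3 and 5, and 0.551, 0.580 and 0.715 CPM in young replicates 1, 2 and 5. Even the lowest old fish was well above the highest young fish. The means were 2.65 ± 0.723 and 0.615 ± 0.088 CPM (SD, n = 3), with a log2 fold change of 2.10 ± 0.40 (SE, 95% interval 1.19 to 3.00), and the edgeR adjusted p of 0.0517 fell just short of the threshold. It passed in 4 of 17 alternatives, with adjusted p values of 0.0399 with scaling by library size alone, 0.0426 with edgeR's robust option, 0.000516 in DESeq2 and 0.0431 without old replicate 3, and reached 0.218 without young replicate 2.

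*rps27l*, a p53-induced relative of a ribosomal protein gene, had 16.2, 31.7 and 37.3 CPM in old and 11.7, 12.1 and 13.0 CPM in young ventricles. The young fish were tightly grouped and old replicate 1 was the old fish nearest to them. Its log2 fold change was 1.21 ± 0.29 (SE, edgeR adjusted p = 0.0937). The adjusted p was 0.00654 without old replicate 1 and 0.00909 in DESeq2, the 2 of 17 alternatives in which *rps27l* passed the threshold. *pmaip1*, which encodes the cell death protein Noxa, had 4.99, 4.76 and 3.64 CPM in old against 2.55, 1.93 and 1.58 CPM in young fish, without overlap (log2 fold change 1.14, edgeR adjusted p = 0.137, DESeq2 adjusted p = 0.0224). Among the listed genes that were lower, *sesn3*, a stress-induced regulator of growth signalling, had 57.8, 24.4 and 34.7 CPM in old and 61.6, 64.1 and 51.4 CPM in young ventricles. Old replicate 1 lay within the young range and the other old fish below it (log2 fold change -0.60 ± 0.29 SE, edgeR adjusted p = 0.373). *pidd1*, a p53-induced death domain gene, had a log2 fold change of -0.80 ± 0.57 (SE, edgeR adjusted p = 0.554).

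**Figure D3:**
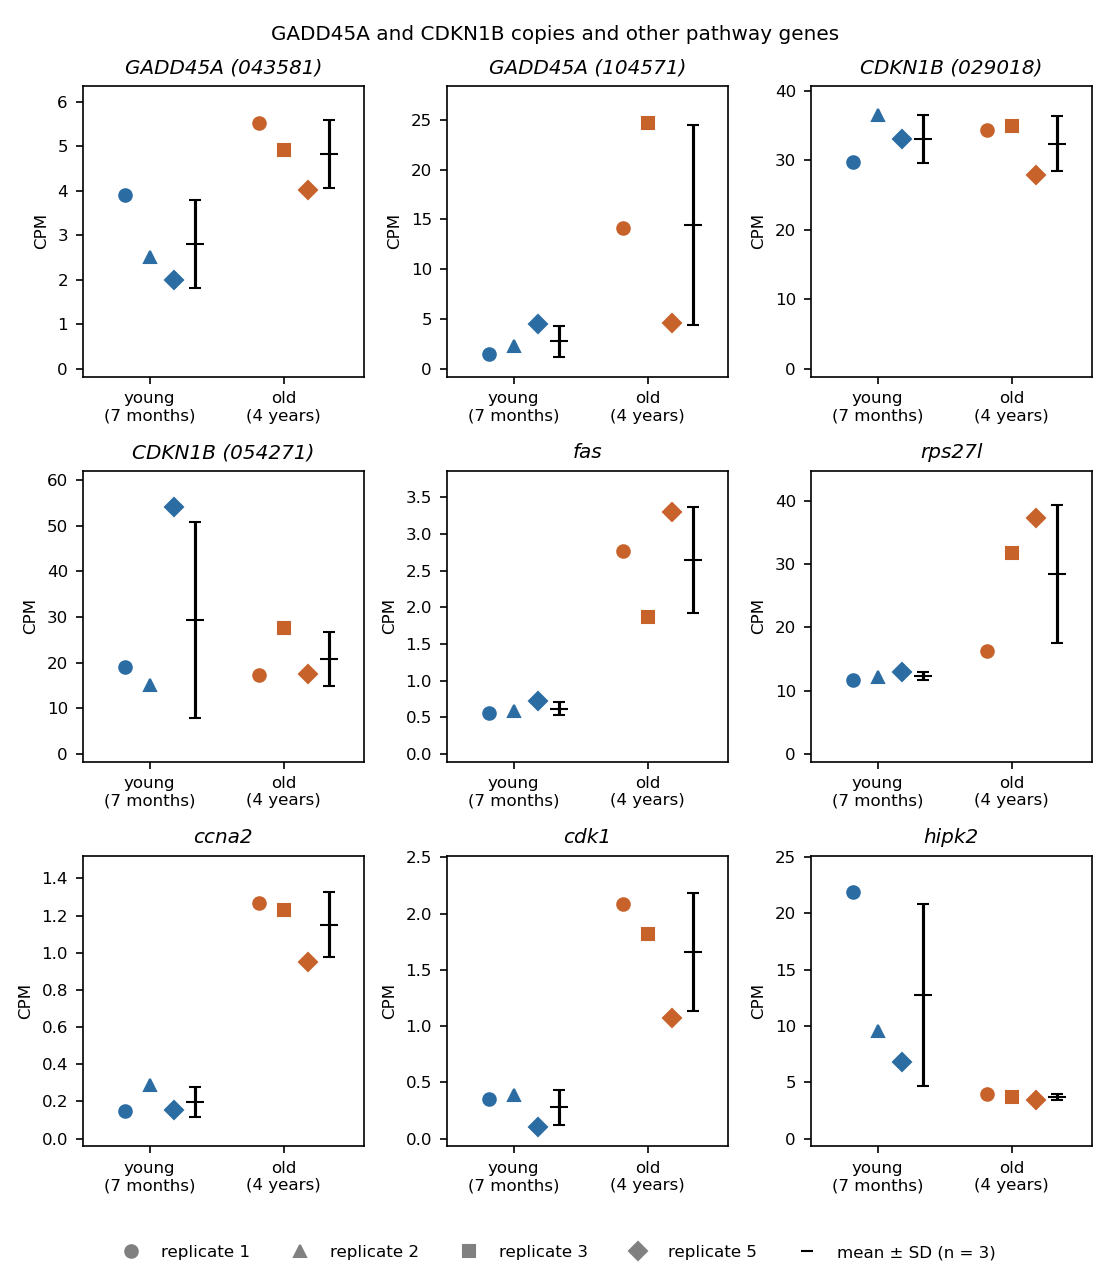
Normalised level in CPM (vertical axes, linear, from 0, each panel with its own range) of the GADD45A and CDKN1B copies (last digits of the Ensembl ID in brackets) and of *fas*, *rps27l*, *ccna2*, *cdk1* and *hipk2*, with 1 point per fish and bars for the mean ± SD of 3 fish. Old and young points do not overlap for the GADD45A copies and the 5 other genes, with *hipk2* lower and the rest higher in old fish, whereas 1 young point at 54.1 CPM stands apart in the CDKN1B copy ENSDARG00000054271.

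Of 24 genes for p53 regulators and DNA damage kinases, 6 had a positive and 18 a negative log2 fold change. The median was -0.20, and it was -0.016 with 11 positive and 13 negative when libraries were scaled by size alone. edgeR and limma-voom called 0 of the 24 (background 0.858% and 0.378%). DESeq2 called 3 of the 23 with an adjusted p (13%, background 7.27%). In edgeR 3 higher (12.5%, background 8.64%) and 2 lower (8.33%, background 6.50%) had an unadjusted p under 0.05. The groups did not overlap for 8 of them (33.3%, against 20.0% of all tested genes). *HIPK2*, a kinase that activates p53, had 3.99, 3.69 and 3.43 CPM in old and 21.9, 9.52 and 6.79 CPM in young fish. The old fish were alike and the young ones spread widely above them (log2 fold change -1.78 ± 0.41 SE, edgeR adjusted p = 0.0852, DESeq2 adjusted p = 0.00411). *HIPK2* passed the threshold in 1 of 17 alternatives, DESeq2. *TP53BP1*, a scaffold at DNA breaks, had 87.3, 85.7 and 95.5 CPM in old and 50.8, 55.4 and 65.1 CPM in young fish. Its groups were clearly apart, with a log2 fold change of 0.65 ± 0.17 (SE, edgeR adjusted p = 0.113), and the adjusted p was 0.0481 with scaling by library size alone and 0.00877 in DESeq2. These were the 2 of 17 alternatives in which *TP53BP1* passed the threshold. *kat5b*, a gene for the acetyltransferase Tip60, had 4.31, 5.30 and 5.12 CPM in old and 6.81, 6.86 and 7.81 CPM in young fish (log2 fold change -0.54 ± 0.23 SE, edgeR adjusted p = 0.304).

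The list of cyclin, CDK, RB and E2F genes holds cyclins and kinases that the inhibitors block, and further cell cycle genes that they do not bind. Of 35 tested, 27 had a positive and 8 a negative log2 fold change, and the median was 0.42. edgeR and limma-voom called 0 of them (background 0.858% and 0.378%). DESeq2 called 2 of the 29 with an adjusted p (6.9%, near the background of 7.27%). In edgeR 6 higher (17.1%, background 8.64%) and 1 lower (2.86%, background 6.50%) had an unadjusted p under 0.05. *ccna2* encodes cyclin A2, which acts from DNA replication to mitosis, and had 1.27, 1.23 and 0.950 CPM in old against 0.150, 0.290 and 0.153 CPM in young fish. *cdk1*, the kinase of mitotic entry, had 2.08, 1.82 and 1.07 CPM in old against 0.350, 0.387 and 0.102 CPM in young fish. For both genes the old fish were well above the young ones, at low levels throughout. Young replicates 1, 2 and 5 had 3, 6 and 3 reads of *ccna2* and 7, 8 and 2 reads of *cdk1*. The log2 fold changes were 2.50 ± 0.53 for *ccna2* (SE, edgeR adjusted p = 0.0718, DESeq2 adjusted p = 0.00733) and 2.54 ± 0.58 for *cdk1* (SE, edgeR adjusted p = 0.0842, DESeq2 adjusted p = 0.00462). Each of these genes passed the threshold in 1 of 17 alternatives, DESeq2. *tfdp2*, a partner of E2F factors, had 2.45, 4.02 and 4.42 CPM in old and 8.01, 4.88 and 6.69 CPM in young fish (log2 fold change -0.85 ± 0.32 SE, edgeR adjusted p = 0.245). *cdc25d* was covered by 0 reads in each old fish and by 2, 1 and 0 reads in the young ones, too few for a comparison.

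Proliferation markers are genes that dividing cells use. Of 18, 15 had a positive log2 fold change, 7 of them with an unadjusted p under 0.05 (38.9%, background 8.64%), and 2 were called in edgeR (background 0.519% higher). DESeq2 called 4 of the 16 with an adjusted p (25%, background 7.27%), and limma-voom called 0. The genes called in edgeR, *top2a* and *mki67*, were named after their values were seen. *top2a*, the topoisomerase of dividing cells, had 3.90, 4.44 and 2.31 CPM in old against 0.250, 0.531 and 0.409 CPM in young fish (log2 fold change 3.14, edgeR adjusted p = 0.0205, past the threshold in 12 of 17 alternatives). *mki67*, which encodes the antigen Ki-67, had 3.53, 3.80 and 3.68 CPM in old against 1.20, 0.918 and 0.868 CPM in young fish (log2 fold change 1.88, edgeR adjusted p = 0.0418, past it in 8 of 17 alternatives). Pooled over the young fish, *top2a* was covered by 24 and *mki67* by 60 reads. The summed level of the proliferation markers was 56.4 to 79.8 CPM in old and 41.9 to 48.3 CPM in young libraries.

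Leukocyte markers were measured as a list of 26 tested genes, in which related copies count separately. The symbol *mfap4.1* stood for 8 IDs and *mpeg1.1* for 3, before IDs without reads were left out. Of these, 24 had a positive log2 fold change, 17 with an unadjusted p under 0.05 (65.4%, background 8.64%). The groups did not overlap for 10 of the 26 (38.5%, against 20.0% of all tested genes). DESeq2 called 11 of the 21 with an adjusted p (52.4%, background 7.27%), and limma-voom called 0. In edgeR 1 gene passed the threshold (background 0.519% higher). It was *lcp1*, the pan-leukocyte gene of L-plastin (log2 fold change 1.78, edgeR adjusted p = 0.0483), named after its values were seen. The list's summed level was 323 to 1082 CPM in old and 170 to 300 CPM in young libraries. A further 2 markers on the list had no read in any library. Every old sum was above every young one, which was also the order of *cdkn1a*, *cdkn2a/b* and the summed proliferation markers. Of all tested genes, 10.4% had this order. Among the old fish, replicate 1 had the highest and replicate 3 the lowest sum of leukocyte markers. Of the 6 members, 3 were highest in old replicate 5, 2 in old replicate 1 and 1 in old replicate 3. Of 14 markers of atrium and bulbus arteriosus, the chamber and outflow tract next to the ventricle, 10 had a positive log2 fold change. Of the 14, 7 were higher with an unadjusted p under 0.05 (50.0%, background 8.64%), and edgeR called 0 (background 0.858%). DESeq2 called 4 of the 11 with an adjusted p (36.4%, background 7.27%), and limma-voom called 0. The median log2 fold change of the 14 was 1.20, and their summed level was 430 to 640 CPM in old and 454 to 695 CPM in young libraries. Of the cardiomyocyte markers, 6 of 18 were lower with an unadjusted p under 0.05 (33.3%, background 6.50%), and edgeR called 0. For this list DESeq2 called 3 of the 17 with an adjusted p (17.6%, background 7.27%), and limma-voom called 0. Of 7 erythrocyte markers, 6 were lower with an unadjusted p under 0.05 (85.7%, background 6.50%), and edgeR called 2 of them (background 0.338% lower). DESeq2 called 6 of the 7 (85.7%, background 7.27%) and limma-voom 0. The part of leukocytes, erythrocytes, dividing cells or neighbouring tissue in the levels of the inhibitors, p53 targets and other pathway genes was not tested. Fibroblast and epicardium markers summed to 370 to 665 CPM in old and 498 to 684 CPM in young libraries, and endothelial markers to 785 to 928 CPM in old and 834 to 1286 CPM in young ones. Of 9 endothelial markers, 7 had a negative log2 fold change, while 2 were higher with an unadjusted p under 0.05 (22.2%, background 8.64%). edgeR called 0 of the 9 (background 0.858%), DESeq2 2 (22.2%, background 7.27%) and limma-voom 0.

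**Figure D4:**
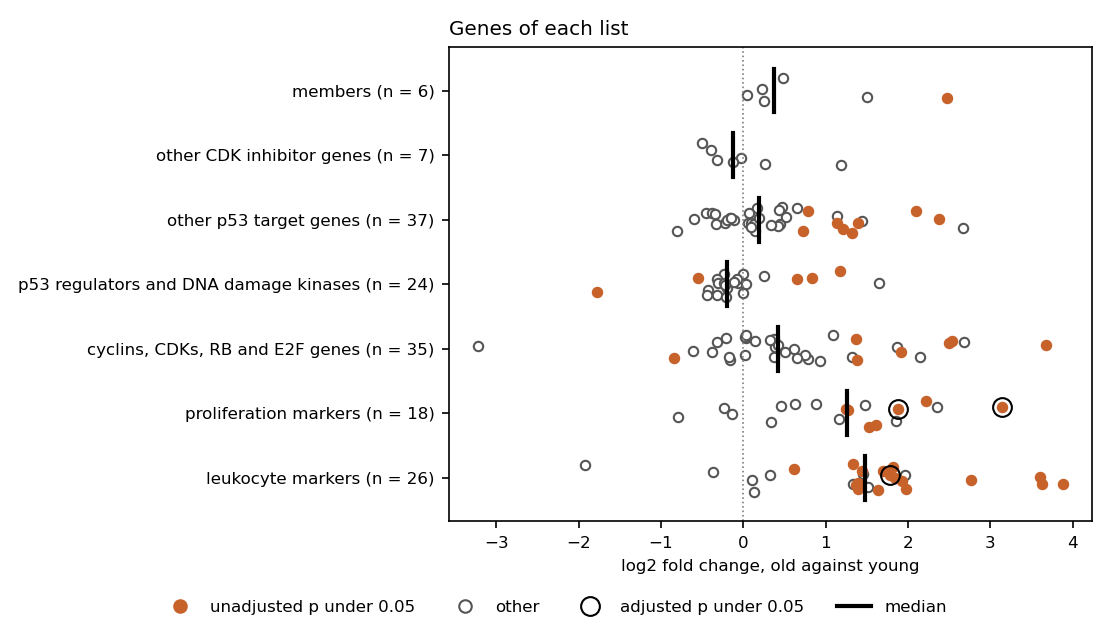
Fitted log2 fold change, old against young (horizontal axis), of each tested gene of 7 lists (vertical axis), with filled points for an unadjusted p under 0.05, rings for an adjusted p under 0.05 and bars for the list's median. Rings appear for 2 proliferation markers and 1 leukocyte marker and for none of the members or other pathway genes, and the members' points all lie to the right of 0.

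The genes whose pattern over the 6 libraries was most like that of a member were found by the root mean square distance between standardised log2 CPM values, over 13261 genes with a mean of at least 1 CPM. The median distance to all of them lay between 1.31 and 1.34, depending on the member. Nearest to *cdkn1a* were the unnamed gene ENSDARG00000111091 at 0.0733, *RIPOR1* at 0.115 and the unnamed ENSDARG00000096419 at 0.129. Nearest to *cdkn1ca* were *TCF7L2* at 0.0985, ENSDARG00000098959 at 0.112 and *TTC3* at 0.119. *mdm2* was most like *znf1024* at 0.116, *l3mbtl1b* at 0.167 and *RFC3* at 0.168. For *ccng1* the nearest genes were *g0s2* at 0.0870, *RGS2* at 0.139 and *selenou1b* at 0.141, and for *cdkn2c* they were *CELF2* at 0.196, *rpz4* at 0.263 and *POLA1* at 0.274. No member was among the 3 nearest genes of another. With 3 genes kept out of 13261, this cannot show whether the members share a pattern. These distances are a description over 6 libraries, and *cdkn2a/b*, under 1 CPM, was not compared.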

How the data were processed

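Read counts per gene were used as the authors deposited them, with 1 column per ventricle. The authors' processing notes name bcl2fastq 2.20.0.422, STAR 2.5.4b, featureCounts 1.6.3 and the genome build GRCz11, and uniquely mapped reads were counted by strand. The 24835 of 32520 genes with 1 or more reads in a library were tested with edgeR 4.0.16 (quasi-likelihood, TMM, old against young, no covariates, R 4.3.3) and adjusted with the Benjamini-Hochberg method over all of them. Symbols came from a name table that names 29201 genes, matched without regard to case. A listed symbol without a match was looked up again without its final a, b or number. Every ID found was kept, so related copies count as separate genes of a list. Only the members needed a single ID. CPM use TMM-scaled library sizes, and intervals cover 95%.

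Members and gene lists were chosen with earlier results of these data known. Named were all members, their copies, all genes on the list of other CDK inhibitors and, per pathway list (cell type and proliferation markers not included), the called genes and the 2 per direction with the smallest p, besides genes said to be named after their values were seen. The result of a gene that this rule picks is not reported here. Alternatives, 17 in all, used other scalings, filters and edgeR options, DESeq2 1.42.0, limma-voom 3.58.1, a replicate block, or left out each library. Code was tested on simulated data. No 2 libraries were alike within counting error.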

Additional observations from a re-analysis of the deposited data

How the results depend on the processing

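None of the 6 members passed the threshold under any of the 17 alternatives. Over all genes, edgeR called 213 genes, 129 of them higher in old fish. The count was 120 with no filter, 65 with at least 10 reads summed, 111 with filterByExpr and 111 with edgeR's newer dispersion option (legacy = FALSE), 94 in limma-voom and 1239 in DESeq2. With each library left out in turn, it ran from 19 (without young replicate 2) to 412 (without old replicate 1). Scaling by library size alone called 225 genes, 181 of them higher. Of the listed pathway genes, 0 were called, against 3 with scaling by library size alone, 1 with the robust option, 9 in DESeq2 and 0 to 2 with a library left out. Over all genes the first 3 of these settings called 225, 263 and 1239. The 9 in DESeq2 were 11.1% of the 36 genes listed as other p53 targets, 13% of the 23 regulators and kinases and 6.9% of the 29 cyclin, CDK, RB and E2F genes with an adjusted p. DESeq2 called 7.27% of all genes.

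For the members and the GADD45A and CDKN1B copies, 158 of 169 log2 fold changes kept their direction and their side of the threshold. GADD45A (ENSDARG00000104571) passed in DESeq2 and without old replicate 5. The signs that turned were those of *cdkn1ca* and *mdm2* with the replicate block (-0.28 and -0.011), *mdm2* without old replicate 5 (-0.051) or young replicate 2 (-0.024), *cdkn2c* without old replicate 1 (-0.095), CDKN1B (ENSDARG00000029018) under library size scaling (0.15) and without old replicate 5 (0.066) or young replicate 2 (0.046), and CDKN1B (ENSDARG00000054271) without young replicate 5 (0.28). Apart from the signs that rest on leaving a fish out, the cause was not tested. *cdkn2a/b* did not reach the filterByExpr minimum and has no value there. With a library left out, the log2 fold change ran from -0.095 to 0.39 for *cdkn2c*, from -0.051 to 0.15 for *mdm2*, from 1.96 to 3.34 for *cdkn2a/b*, from -0.10 to 0.066 for CDKN1B (ENSDARG00000029018) and from -0.81 to 0.28 for CDKN1B (ENSDARG00000054271).

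The groups share replicate numbers 1 and 5 in the labels. Same-numbered fish did not deviate together (r = -0.0349 for replicate 1 and 0.0303 for replicate 5, across 13262 genes). With the replicate block 126 genes were called, none of them a member. Old replicate 3 and young replicate 2 have no same-numbered fish, so the age difference in that fit rests on replicates 1 and 5 alone. Little is left in it to estimate the spread between fish, and its values cannot be compared directly with those from all 6 libraries. Depth limits *cdkn2a/b*, *cdkn2d* and *cdkn1cb*, and in the young fish also *ccna2*, *cdk1* and *top2a*. *top2a* had 24 reads pooled over the young fish. Few reads also cover *cdkn1ca* in old replicate 1 (6 reads) and young replicate 2 (1 read). Over the 6 libraries 3 reads correspond to 0.124 to 0.161 CPM.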
